A study of Rattus norvegicus with 4 samples.

Results

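The matrix metalloproteinases (Mmp), the disintegrin metalloproteinases (Adam and Adamts) and the tissue inhibitors of metalloproteinases (Timp) were described in ear skin of Sprague Dawley (SD) rats given adeno-associated virus (AAV). Members were the rows of the count table that are listed as protein-coding and carry an Mmp, Adam or Adamts symbol with a number, or Timp1 to Timp4. There were 78 such rows among 54532, of which 37 had a count in at least 1 library and 19 had enough counts to be tested. Of all 22046 protein-coding rows, 52.4% had a count and 26.6% were tested.

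In each of 2 rats, 1 ear was injected with AAV-Fgf7, a vector for fibroblast growth factor 7, and the other with AAV-control, and the injected sites were sampled on day 3. The AAV-Fgf7 group (labelled Fgf7 overexpression) and the AAV-control group (labelled wt) therefore held 2 libraries each, 1 from each rat. The titles and the design text disagree on which ear received which virus, so ear side was not used. The sources used here do not give the promoter or serotype of the virus, nor the age or sex of the rats. The contrast asks which transcripts differ in skin when Fgf7 is delivered, in work on re-epithelialization.

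Library totals ran from 1299136 to 1601321 counts. Fgf7 itself had 454 and 1429 counts in AAV-Fgf7 ears of rats 1 and 2, against 94 and 110 counts in their AAV-control ears, in the direction of the labels. The rows carry mouse gene identifiers although the animals were rats, and genes with high levels in dermis such as Dcn and Lum were listed at 0, so a 0 here says nothing about absence of the transcript. Keratin genes marked the skin (all 7 basal keratinocyte markers had counts), and 12 of 12 skeletal muscle markers and 8 of 10 cartilage markers had counts as well, so the pieces held muscle and cartilage beside skin. In such pieces fewer cells of a type and less RNA per cell cannot be told apart.

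These enzymes cut proteins outside the cell with a zinc ion in the active site. MMPs cleave collagens, gelatin and other matrix proteins, ADAMs are membrane proteins that release the outer part of other membrane proteins such as growth factor precursors and Notch, and ADAMTS enzymes are secreted proteases that trim procollagens, cleave proteoglycans or act on microfibrils. Timps bind the active site and block it. In skin the family is known for the remodelling of dermis and for the movement of keratinocytes across a wound bed.

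The start regions of 6 members are shown, because Timp2, Mmp23, Adam17, Adamts10 and Adamts9 had groups that did not overlap in the comparison of the ears and Adam10, whose mean FPKM was close to that of Mmp2, had the log2 fold change nearest to 0. Of the 19 tested members, 12 had an entry in the RefSeq promoter table of rat build GRCr8. Mmp2, Mmp14, Adamts15, Mmp16, Adam9, Adamts5 and Adam23 had none. Each sequence is the 250 bases before the transcript start, 5′ to 3′ on the strand of the gene, in lower case. Capitals mark matches, on either strand, to 4 motifs: the GC box GGGCGG, the AP-1 site TGANTCA, the PEA3 site AGGAAG, named for the ETS factor that Etv4 encodes, and the TATA box TATAAA. In Adam10 the GC boxes overlap each other.
Timp2 (chr10:104089215-104089464, minus strand): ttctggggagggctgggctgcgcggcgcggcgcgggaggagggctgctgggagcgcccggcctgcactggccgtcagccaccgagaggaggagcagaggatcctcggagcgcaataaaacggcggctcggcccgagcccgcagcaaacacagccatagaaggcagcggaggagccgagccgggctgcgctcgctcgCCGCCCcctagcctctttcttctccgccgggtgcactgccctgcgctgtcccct
Mmp23 (chr5:171524535-171524784, minus strand): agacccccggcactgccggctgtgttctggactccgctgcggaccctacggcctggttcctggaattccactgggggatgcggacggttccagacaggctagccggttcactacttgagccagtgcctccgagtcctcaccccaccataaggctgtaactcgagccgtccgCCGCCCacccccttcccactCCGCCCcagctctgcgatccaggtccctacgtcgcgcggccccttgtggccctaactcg
Adam17 (chr6:46649345-46649594, minus strand): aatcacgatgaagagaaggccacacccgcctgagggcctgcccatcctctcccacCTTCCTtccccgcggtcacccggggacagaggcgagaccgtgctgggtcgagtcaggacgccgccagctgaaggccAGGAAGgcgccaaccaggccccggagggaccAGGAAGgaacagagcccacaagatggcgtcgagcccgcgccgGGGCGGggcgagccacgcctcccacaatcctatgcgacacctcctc
Adamts10 (chr7:15033685-15033934, plus strand): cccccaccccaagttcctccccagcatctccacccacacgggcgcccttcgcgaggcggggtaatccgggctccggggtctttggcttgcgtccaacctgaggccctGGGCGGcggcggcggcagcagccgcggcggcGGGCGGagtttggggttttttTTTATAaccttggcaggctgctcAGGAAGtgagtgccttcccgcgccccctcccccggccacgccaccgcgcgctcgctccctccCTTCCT
Adamts9 (chr4:127019877-127020126, minus strand): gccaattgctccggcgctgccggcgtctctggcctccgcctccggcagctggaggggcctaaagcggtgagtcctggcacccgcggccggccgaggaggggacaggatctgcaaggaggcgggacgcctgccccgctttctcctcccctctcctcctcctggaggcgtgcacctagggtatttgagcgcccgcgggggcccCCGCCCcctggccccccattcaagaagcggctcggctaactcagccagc
Adam10 (chr8:80226612-80226861, plus strand): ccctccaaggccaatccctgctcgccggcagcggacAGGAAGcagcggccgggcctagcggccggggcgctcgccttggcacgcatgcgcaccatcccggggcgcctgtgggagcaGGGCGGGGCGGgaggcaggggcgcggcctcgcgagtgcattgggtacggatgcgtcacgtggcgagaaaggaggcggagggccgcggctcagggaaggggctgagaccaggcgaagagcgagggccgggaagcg

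The GC box occurred in 9 of the 12 tested members with an entry, and in 30.5% of all 33469 windows of that length in the table. The 12 had enough counts to be tested, while the windows in the table were not picked by counts. The 6 windows shown held 66.4% to 74.4% G or C, beside a median of 51.2% over all windows. Whether the GC box share goes beyond this base content was not tested. Counting the base just before the start as -1, the GC box match began at -54 in Timp2, at -79 and -59 in Mmp23, and at -46 in Adam17. The PEA3 letters occurred in 5 of the 12, namely Adam10, Adam17, Adamts10, Adamts12 and Timp4, and in 29.5% of all windows. Adam17 held 3 PEA3 matches, Adamts10 held 2 and Adam10 held 1. The TATA box occurred in Adamts10 alone among the 12, and in 12.9% of all windows. The AP-1 letters were in 0 of the 12 and in 6.34% of all windows. These matches describe letters in the windows and show no binding.

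Counts reached the 4 families unequally. Timp had 3 of 4 members with a count, Adamts 16 of 19, Adam 10 of 33 and Mmp 8 of 22. The Timp members held 65.4% of all member counts, the Mmp members 15.7%, the Adam members 12.6% and the Adamts members 6.26%. Timp2, Timp3, Adam10, Mmp2 and Mmp14 together held 89.4% of the member counts, and Timp2 alone held 51.1%. The share of Timp2 was 50.6% and 50.7% in AAV-Fgf7 ears, against 52.4% and 50.9% in AAV-control ears.

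The 41 members without a count included many enzymes of inflamed or wounded tissue. The collagenases Mmp8 and Mmp13, the gelatinase Mmp9, the stromelysins Mmp3 and Mmp10, the elastase Mmp12 and the inhibitor Timp1 were all listed at 0 in every library. A count of 0 allows up to 3 counts, which is at most 2.28 CPM (counts scaled to a common library size after TMM) in any library. That limit covers counting error in these rows, and gives no bound on transcripts whose reads the mouse-identifier rows did not collect. Of the Adam members without a count, Adam2, Adam3 and Adam18 are known from sperm and testis, and Adam8 from leukocytes. Rows without a count had a median gene model length of 2778 bases, against 5960 bases for rows with a count. Symbols of all 37 members with a count, and of 37 of the 41 without, occurred in the rat RefSeq table, so most of the rows at 0 are not genes that rats lack. The 8 neutrophil markers looked for were at 0 as well.

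Levels between genes are compared on the deposited FPKM scale, which divides by gene model length. It does not correct for the part of a rat gene's reads that its mouse-identifier row collected, which is not known. The order below is one of deposited values, and the order of transcript levels may differ from it. Timp2, a secreted inhibitor that also joins Mmp14 at the cell surface in the activation of pro-Mmp2, stood at 652.6 and 507.5 FPKM in AAV-Fgf7 ears, against 670.7 and 772.8 FPKM in AAV-control ears. Its lowest library lay above the highest library of every other member. Adam10, the sheddase of Notch and of cadherins, followed at 117 and 118 FPKM in AAV-Fgf7 ears, against 119.7 and 114 FPKM in AAV-control ears. Mmp2, the gelatinase of resting connective tissue, stood at 109 and 93.1 FPKM in AAV-Fgf7 ears, against 123 and 138 FPKM in AAV-control ears. The ranges of Adam10 and Mmp2 overlapped, as did those of Mmp2 and Timp3 and those of Timp3 and Mmp14. Timp3, an inhibitor that stays bound to the matrix, averaged 82.1 ± 28.8 FPKM over the 4 libraries (SD), and Mmp14, the membrane-anchored collagenase that activates Mmp2, averaged 43.8 ± 6.56 FPKM.

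Below them, Mmp23, an MMP without a hemopexin domain, averaged 22.4 ± 5.75 FPKM, and Adamts10, which binds fibrillin microfibrils, 15.0 ± 1.88 FPKM (SD over 4 libraries). The range of Mmp23 lay below that of Mmp14 and overlapped that of Adamts10. Adamts2, which removes the amino-terminal propeptide of procollagens, averaged 8.08 ± 1.58 FPKM, and Adamts15, a protease of versican and aggrecan, 7.71 ± 2.49 FPKM. Adam17, which releases tumour necrosis factor and ligands of the EGF receptor, averaged 3.97 ± 0.312 FPKM. Its 4 libraries all lay below those of Adam10. The remaining tested members ran from 5.64 FPKM for Timp4 down to 0.356 FPKM for Adam23, an Adam without protease activity.

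**Figure D1:**
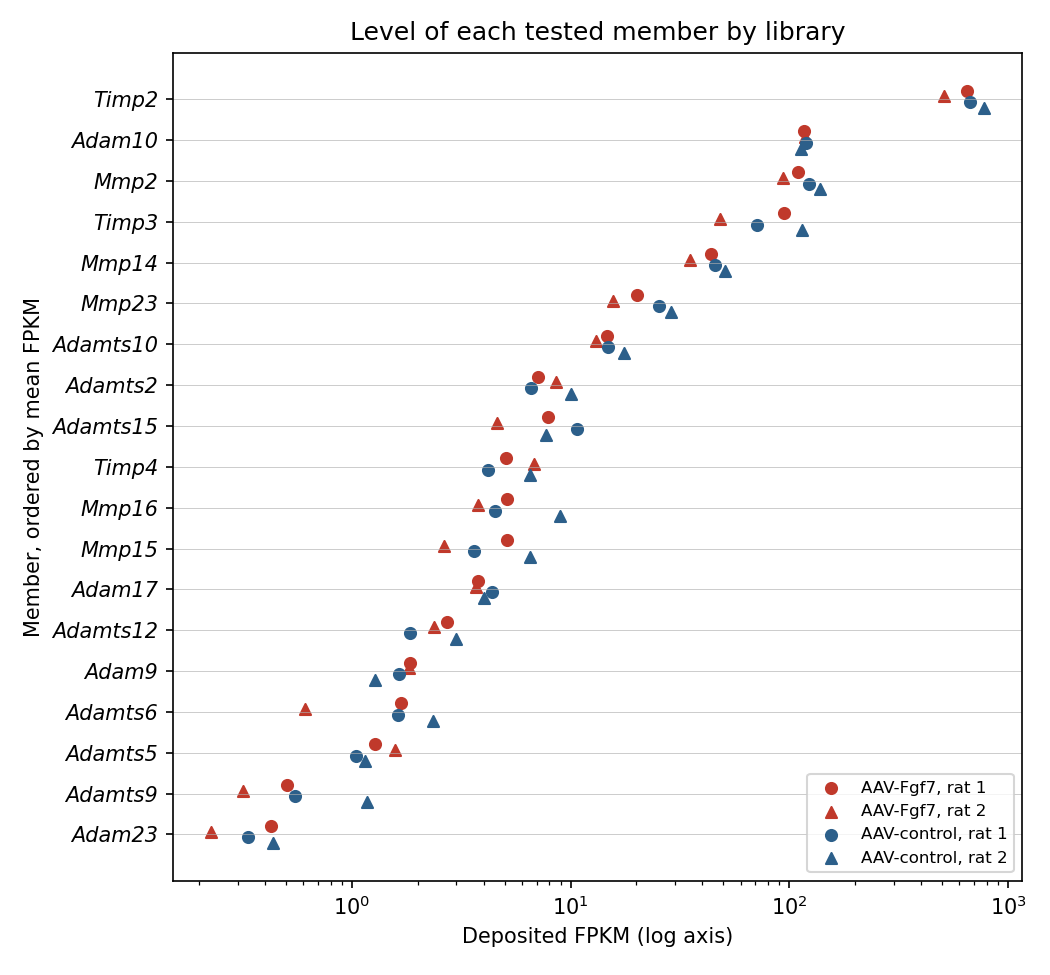
Deposited FPKM (log axis) of the 19 tested members, ordered by mean FPKM from top to bottom, with 1 point per library (circles rat 1, triangles rat 2, red AAV-Fgf7, blue AAV-control). Timp2 lies apart at the top between 507.5 and 772.8 FPKM, and the 4 points of Adam10 nearly coincide between 114 and 119.7 FPKM.

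No member passed the test of AAV-Fgf7 against AAV-control. The quasi-likelihood test of edgeR, with Benjamini-Hochberg adjustment over all 6370 tested genes, called 0 of the 19 members and 0 genes in all (0%), with 0 members and 148 genes (2.32%) at an unadjusted p under 0.05. DESeq2 called 0 members and 4 genes (0.0628%). The log2 fold change was below 0 for 14 of the 19 members and for 52.2% of all tested genes. The members' median log2 fold change was -0.28, beside -0.02 over all tested genes. Leaving out a single library gave medians of -0.49 (AAV-Fgf7, rat 1), -0.14 (AAV-Fgf7, rat 2), -0.36 (AAV-control, rat 1) and -0.02 (AAV-control, rat 2). Both AAV-Fgf7 libraries lay below both AAV-control libraries for 7 members (13.3% of all tested genes), and above both for 2 members (14.8% of all tested genes). With library totals as the only scaling, Adam17 left the group of 7.

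Among the inhibitors, Timp2 (ENSMUSG00000017466) had 2599 and 2015 CPM in AAV-Fgf7 ears of rats 1 and 2, against 2653 and 3068 CPM in AAV-control ears. The groups did not overlap, though the AAV-Fgf7 library of rat 1 lay just under the AAV-control library of the same rat. Its log2 fold change was -0.31 (SE 0.21, 95% interval -0.81 to 0.19), and edgeR gave it an unadjusted p of 0.182. The adjusted p was 0.9996 for every member. Leaving out 1 library moved its fold change between -0.51 (AAV-Fgf7, rat 1 left out) and -0.14 (AAV-Fgf7, rat 2 left out). Timp3 had 789.6 and 399 CPM in AAV-Fgf7 ears, against 587 and 949 CPM in AAV-control ears. The ears of rat 1 and rat 2 differed in opposite directions, and the log2 fold change was -0.37 (SE 0.38). Timp4, an inhibitor best known from heart and muscle, had 30.4 and 40.8 CPM in AAV-Fgf7 ears, against 25.1 and 39.3 CPM in AAV-control ears, a log2 fold change of 0.14 (SE 0.37) with overlapping groups.

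The tested gelatinase Mmp2 and the 3 tested membrane-type MMPs had fold changes below 0, and 0 of them were called. Mmp2 (ENSMUSG00000031740) had 376 and 319.9 CPM in AAV-Fgf7 ears, against 421 and 473 CPM in AAV-control ears. Both AAV-Fgf7 libraries lay below both controls, with a log2 fold change of -0.36 (SE 0.19, 95% interval -0.83 to 0.11) and an edgeR unadjusted p of 0.112. Mmp14 (ENSMUSG00000000957) had 267 and 213 CPM in AAV-Fgf7 ears, against 276 and 308 CPM in AAV-control ears, again without overlap, and a log2 fold change of -0.28 (SE 0.21, 95% interval -0.79 to 0.23, edgeR unadjusted p 0.223). With 1 library left out the fold change lay between -0.49 and -0.25 for Mmp2 and between -0.46 and -0.13 for Mmp14. Mmp16, a relative of Mmp14, had 45.2 and 33.2 CPM in AAV-Fgf7 ears, against 39.5 and 78.5 CPM in AAV-control ears. The groups of Mmp16 overlapped, and its log2 fold change was -0.59 (SE 0.41). It was -1.001 without the AAV-control library of rat 1 and -0.0057 without that of rat 2. Mmp15, the remaining tested membrane-type enzyme, had 40 and 21 counts in AAV-Fgf7 ears, against 26 and 54 counts in AAV-control ears, and a log2 fold change of -0.39 (SE 0.49).

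Mmp23 was the member with the lowest p. The row of Mmp23 (ENSMUSG00000029061) had 68 and 54 counts, or 48.0 and 37.4 CPM, in AAV-Fgf7 ears, against 79 and 103 counts, or 60.0 and 68.6 CPM, in AAV-control ears. Both AAV-Fgf7 libraries lay below both controls, and the group means were 42.7 ± 7.52 CPM in AAV-Fgf7 ears and 64.3 ± 6.06 CPM in AAV-control ears (SD, n = 2 each). The log2 fold change was -0.59 (SE 0.29, 95% interval -1.29 to 0.11), and the edgeR unadjusted p was 0.0841. Leaving out 1 library at a time moved this fold change between -0.79 and -0.42.

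Of the ADAM sheddases, 7 had a count and 3 were tested, Adam10, Adam17 and Adam9, and 0 were called. Adam10 had 586 and 589 CPM in AAV-Fgf7 ears, against 597 and 568 CPM in AAV-control ears. All 4 libraries lay close together, with group means of 588 ± 2.14 CPM in AAV-Fgf7 ears and 583 ± 20.1 CPM in AAV-control ears (SD, n = 2 each). The log2 fold change was 0.01 (SE 0.17) with a 95% interval of -0.41 to 0.43. Adam17 had 27.5 and 27.0 CPM in AAV-Fgf7 ears, against 31.9 and 29.3 CPM in AAV-control ears, a log2 fold change of -0.16 (SE 0.31, edgeR unadjusted p 0.618) from 39 to 44 counts a library. Adam9, a sheddase of keratinocytes and fibroblasts, had 11 and 11 counts in AAV-Fgf7 ears, against 9 and 8 counts in AAV-control ears. Adam9 lay higher in both AAV-Fgf7 libraries, with a log2 fold change of 0.34 (SE 0.54, 95% interval -0.97 to 1.65, edgeR unadjusted p 0.550). Adam23 had 11 and 6 counts in AAV-Fgf7 ears, against 8 and 12 counts in AAV-control ears, with overlapping groups.

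The ADAMTS enzymes pointed in both directions, with 5 of 7 fold changes below 0. Adamts10 had 81.9 and 72.7 CPM in AAV-Fgf7 ears, against 82.0 and 97.8 CPM in AAV-control ears, so that in rat 1 the ears were nearly equal. Its log2 fold change was -0.22 (SE 0.24, edgeR unadjusted p 0.401). Adamts15 had 83.3 and 48.5 CPM in AAV-Fgf7 ears, against 112 and 81.2 CPM in AAV-control ears, a log2 fold change of -0.55 (SE 0.35). The Adamts15 groups overlapped, but within each rat the AAV-Fgf7 ear was the lower.

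Adamts5, the main aggrecan-degrading enzyme of mouse cartilage, had 20 and 25 counts in AAV-Fgf7 ears, against 15 and 19 counts in AAV-control ears, and a log2 fold change of 0.38 (SE 0.41). It was higher in both AAV-Fgf7 libraries. Adamts9, a versican protease of basement membranes and vessels, had 11 and 7 counts in AAV-Fgf7 ears, against 11 and 27 counts in AAV-control ears, and a log2 fold change of -1.06 (SE 0.60, edgeR unadjusted p 0.127). Without the AAV-control library of rat 2 it was -0.40, and leaving out any other library gave values from -1.4995 to -0.76. The raw counts of the 2 ears of rat 1 were equal, and the AAV-control library of rat 2 stood above the others. Adamts6 showed a similar layout with 19 and 7 counts in AAV-Fgf7 ears, against 17 and 28 counts in AAV-control ears (log2 fold change -0.79, SE 0.59, and -1.69 to -0.24 when 1 library was left out). Adamts2 and Adamts12, which acts on cartilage matrix, had overlapping groups and log2 fold changes of -0.08 (SE 0.30) and 0.07 (SE 0.38).

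**Figure D2:**
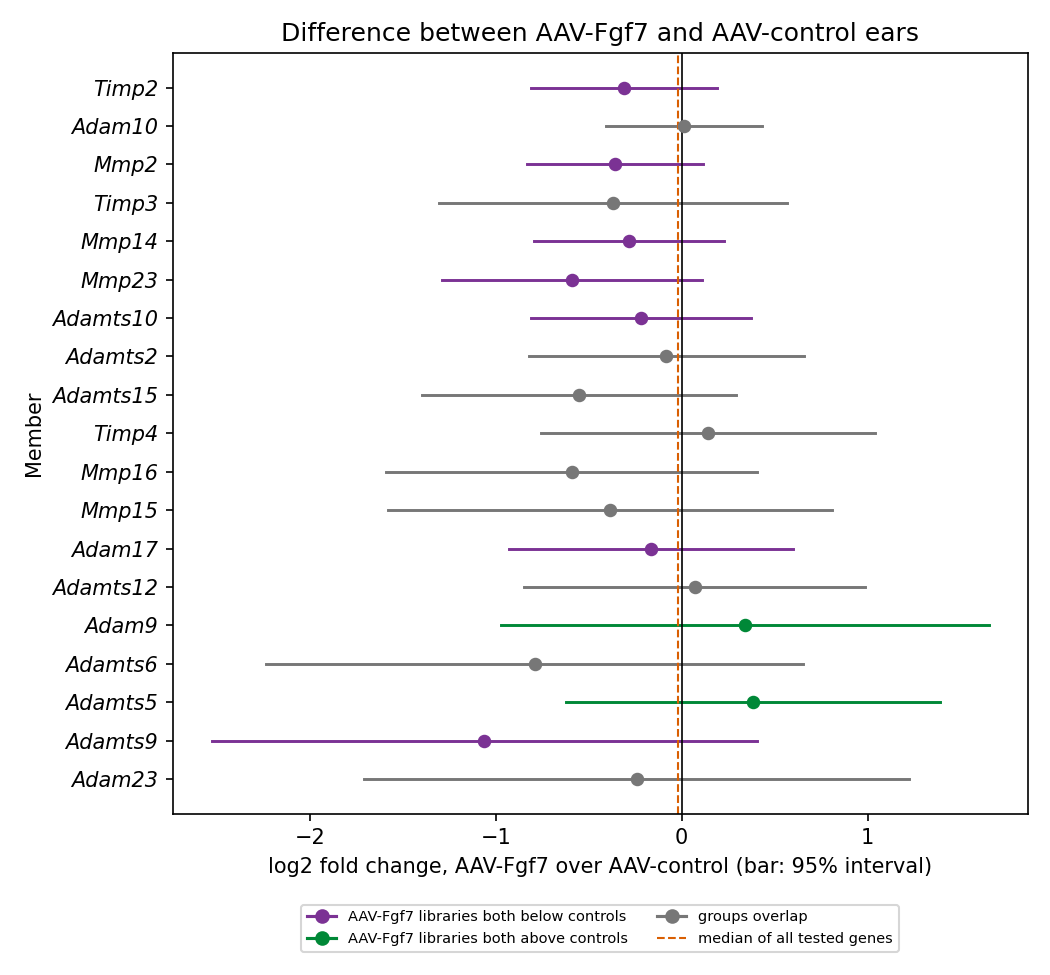
Log2 fold change of AAV-Fgf7 over AAV-control for the 19 tested members (edgeR, bars 95% intervals), in the order of mean FPKM. Every interval spans 0; 7 members in purple had both AAV-Fgf7 libraries below both controls, 2 in green had both above, and the dashed line is the median of all tested genes at -0.02.

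Paired by the rat numbers in the titles, the ears of the 2 rats did not give the same picture. Same-numbered libraries deviated from their group means with r = -0.30 over 6370 genes, so the values per rat depend on that numbering. The 2 libraries numbered rat 2 differed more than any other pair (chi-square per degree of freedom 23.9). In rat 1 the AAV-Fgf7 ear had the lower CPM for 9 of 19 members, beside 49.8% of all tested genes. In rat 2 it had the lower CPM for 15 of 19, beside 49.1% of all tested genes. The ratio was below 1 in both rats for 8 members, beside 19.9% of all tested genes. It was above 1 in both rats for Adam9, Adamts5 and Timp4, where the share of all tested genes was not computed. For the members, the median log2 ratio of AAV-Fgf7 to AAV-control CPM was 0.05 in rat 1, where the median of all tested genes was 0.00. It was -0.56 in rat 2, where that of all tested genes was 0.01. In rat 2 the AAV-Fgf7 ear stood at 0.657 times the AAV-control ear for Timp2, 0.677 times for Mmp2, 0.690 times for Mmp14 and 0.420 times for Timp3. In rat 1 the same ratios were 0.980 for Timp2, 0.893 for Mmp2, 0.969 for Mmp14 and 1.35 for Timp3.

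**Figure D3:**
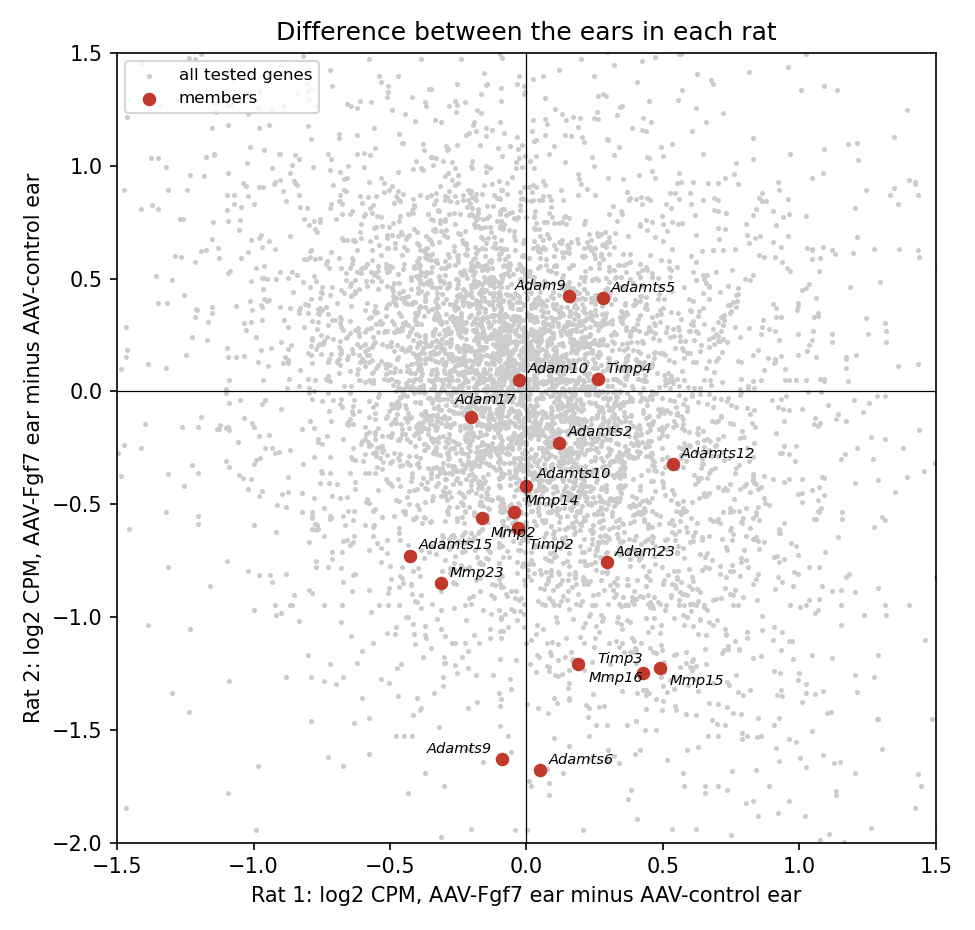
Difference in log2 CPM between the AAV-Fgf7 ear and the AAV-control ear in rat 1 (horizontal) and rat 2 (vertical), with members in red and all 6370 tested genes in grey; 408 genes lie outside the axis ranges. Ears are paired by the rat numbers in the titles. Most members sit below the horizontal line at 0 and on both sides of the vertical one.

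Ratios between members were taken within each library. The ratio of Mmp14 to Timp2 in FPKM was 0.0671 and 0.0689 in AAV-Fgf7 libraries, against 0.0679 and 0.0657 in AAV-control libraries. The ratio of Mmp2 to Timp2 was 0.167 and 0.183 in AAV-Fgf7 libraries, against 0.184 and 0.178 in AAV-control libraries. Both ratios overlapped between the groups. The ratio of Mmp14 to Mmp2 was 0.401 and 0.376 in AAV-Fgf7 libraries, against 0.370 and 0.369 in AAV-control libraries, without overlap. The ratio of Mmp23 to Mmp2 was 0.184 and 0.168 in AAV-Fgf7 libraries, against 0.205 and 0.209 in AAV-control libraries, and here the groups did not overlap. The ratio of Adam17 to Adam10 was 0.0323 and 0.0315 in AAV-Fgf7 libraries, against 0.0367 and 0.0354 in AAV-control libraries, also without overlap. It rests on only 39 to 44 Adam17 counts a library. The ratio of Adam10 to Timp2 was 0.1789 and 0.232 in AAV-Fgf7 libraries, against 0.1784 and 0.147 in AAV-control libraries. These groups were nearly touching, at 0.1789 against 0.1784 in rat 1. The ratio of Timp3 to Timp2 was 0.145 and 0.0947 in AAV-Fgf7 libraries, against 0.106 and 0.148 in AAV-control libraries, with overlap. The pairs were chosen, and the share of other gene pairs without overlap was not computed. The ratios are given as a description and were not tested.

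Some marker lists shared their lowest or highest library with some members, and others did not. Fibroblast markers (4 of 7 with a count, Dcn, Lum and Dpt at 0) summed to 39857 and 27161 CPM in AAV-Fgf7 ears, against 34100 and 39112 CPM in AAV-control ears. Col1a1 held most of this sum (33080 and 22941 CPM in AAV-Fgf7 ears, against 27766 and 32183 CPM in AAV-control ears). The AAV-Fgf7 library of rat 2 was lowest in this sum, as it was for Timp2, Timp3, Mmp2 and Mmp14. It was also lowest for Col1a1, Col1a2 and Col3a1. For Pdgfra that library was highest, with 16.2 and 17.3 CPM in AAV-Fgf7 ears, against 15.9 and 16.0 CPM in AAV-control ears. The same library was highest for basal keratinocyte markers, which summed to 1908 and 3666 CPM in AAV-Fgf7 ears, against 1237 and 1148 CPM in AAV-control ears. Skeletal muscle markers summed to 32385 and 15742 CPM in AAV-Fgf7 ears, against 14938 and 61084 CPM in AAV-control ears. Cartilage markers (8 of 10 with a count) summed to 899.7 and 555 CPM in AAV-Fgf7 ears, against 491 and 1789 CPM in AAV-control ears. The AAV-control library of rat 2 was highest in both of these sums. That library was highest as well in the adipocyte sum (519 CPM, next 323 CPM) and the endothelial sum (140 CPM, next 116 CPM). The smooth muscle and pericyte sum was likewise highest in that library (365 CPM, next 346 CPM). The AAV-control library of rat 2 was also highest for Timp3, Mmp16, Mmp15, Mmp23, Adam23, Adamts2, Adamts6, Adamts9, Adamts10 and Adamts12. The same held for Timp2, Mmp2 and Mmp14, while the fibroblast sum was highest in the AAV-Fgf7 library of rat 1. Macrophage markers (5 of 7 with a count, Cd163 and Itgam at 0) summed to 205 and 278 CPM in AAV-Fgf7 ears, against 382 and 146 CPM in AAV-control ears. Hair follicle markers (9 of the 11 that matched a row had a count) summed to 4486 and 224 CPM in AAV-Fgf7 ears, against 46.3 and 1436 CPM in AAV-control ears. The part of these tissues in the members' values was not tested.

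**Figure D4:**
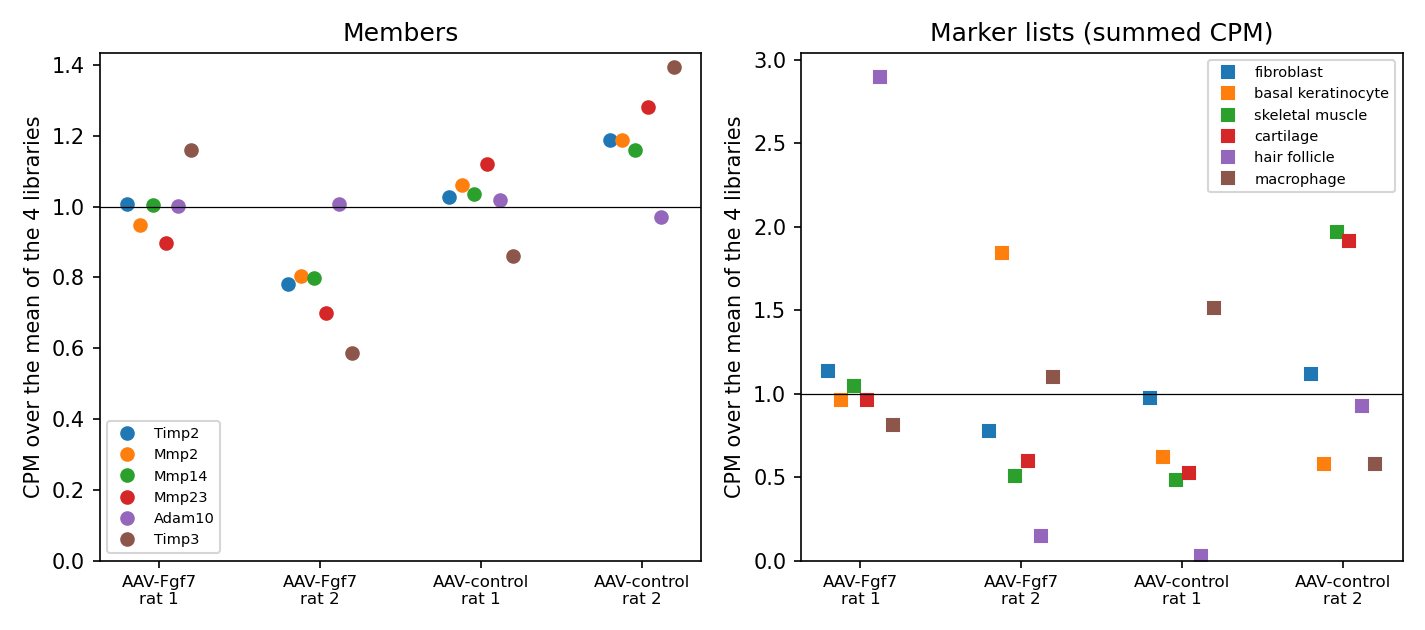
CPM of 6 members (left) and summed CPM of 6 marker lists (right) in each library, each divided by its mean over the 4 libraries, so that 1 is the mean. Timp2, Mmp2, Mmp14 and Mmp23 are lowest in the AAV-Fgf7 ear of rat 2 and highest in its AAV-control ear, while Adam10 stays near 1. The fibroblast sum spreads about as far as Timp2, and the muscle, cartilage and keratinocyte sums spread further.

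The 18 members with a count that were not tested had at most 21 counts in a library. Adam19, a sheddase of neuregulins, had 8 and 3 counts in AAV-Fgf7 ears, against 5 and 21 counts in AAV-control ears, the widest range among them. Adamts4, an aggrecan-degrading enzyme, had 0 and 0 counts in AAV-Fgf7 ears, against 2 and 4 counts in AAV-control ears. Adamts1, which responds to injury in several tissues, had 1 and 3 counts in AAV-Fgf7 ears, against 1 and 0 counts in AAV-control ears. Adam12, an Adam of regenerating muscle and of mesenchymal cells, had 1 and 2 counts in AAV-Fgf7 ears, against 6 and 1 counts in AAV-control ears. Differences among these members were not detectable at this depth. The others were Adam11, Adam15, Adam22, Adam33, Adamts3, Adamts7, Adamts8, Adamts14, Adamts17, Adamts19, Adamts20, Mmp17, Mmp24 and Mmp27.

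Activators and regulators of the family were read beside it. Of 26 such genes 20 had a count and 12 were tested, and 0 were called, with 9 fold changes below 0 and a median log2 fold change of -0.26. Lrp1, the endocytic receptor that clears Mmp2 and Timp complexes, had 661 and 559 CPM in AAV-Fgf7 ears, against 641 and 748 CPM in AAV-control ears. Bmp1, the procollagen C-proteinase, had 143 and 222 CPM in AAV-Fgf7 ears, against 233 and 202 CPM in AAV-control ears, and its enhancer Pcolce had 208 and 169.6 CPM in AAV-Fgf7 ears, against 162 and 226 CPM in AAV-control ears. The groups overlapped for Lrp1, Bmp1 and Pcolce. The plasminogen activator system that activates several MMPs was not readable, since Plau, Plaur and Plat were listed at 0. Of the ADAMTS-like genes, which lack a protease domain, 3 of 7 were tested and 0 were called. Their log2 fold changes were -0.52 for Adamtsl3 (SE 0.43), -0.51 for Adamtsl1 (SE 0.35) and -1.05 for Adamtsl5 (SE 0.80). Adamtsl5 had only 12 and 2 counts in AAV-Fgf7 ears, against 14 and 15 counts in AAV-control ears.

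Matrix substrates had 17 of 26 genes tested, 0 called, 15 fold changes below 0 and a median log2 fold change of -0.35. Col1a1, the main collagen chain of dermis, had a log2 fold change of -0.10 (SE 0.24), Col3a1 at -0.23 (SE 0.26) and Fn1, which encodes fibronectin, at -0.09 (SE 0.19). The groups of Col1a1, Col3a1 and Fn1 overlapped. Col1a2, the second chain of type I collagen and named after its values were seen, had 547 and 338 CPM in AAV-Fgf7 ears, against 707 and 715 CPM in AAV-control ears. Its groups did not overlap (log2 fold change -0.68, SE 0.26, edgeR unadjusted p 0.0401, adjusted p 0.9996). Col1a2 was the only 1 of the 17 with both AAV-Fgf7 libraries below both controls (13.3% of all tested genes). Both lay above both controls for 0 of the 17 (14.8% of all tested genes). Membrane proteins that ADAMs release had 12 of 30 genes tested, 0 called, 5 fold changes below 0 and a median of 0.04. App, the amyloid precursor that Adam10 cuts, stood at -0.07 (SE 0.19), the receptor gene Csf1r at -0.10 (SE 0.38) and the Notch ligand gene Jag1 at -0.12 (SE 0.21), while 7 of the 12 lay above 0. Both AAV-Fgf7 libraries lay above both controls for 3 of the 12, Sdc1, Cd44 and Notch2 (14.8% of all tested genes). Both lay below both controls for 3, Jag1, Prnp and Kitl (13.3% of all tested genes). Sdc1 and Cd44, genes of cell-surface matrix receptors, were picked for the values below after these were seen. Sdc1 had 40.3 and 36.0 CPM in AAV-Fgf7 ears, against 18.2 and 22.6 CPM in AAV-control ears (log2 fold change 0.89, SE 0.33, edgeR unadjusted p 0.0340, adjusted p 0.9996). Cd44 had 12.0 and 18.0 CPM in AAV-Fgf7 ears, against 9.11 and 6.66 CPM in AAV-control ears (log2 fold change 0.93, SE 0.49). The ligand genes Areg, Ereg, Btc and Tnf were listed at 0 in every library.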

How the data were processed

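RNA-seq libraries came from ear skin, 1 AAV-Fgf7 and 1 AAV-control library from each of 2 rats. The authors deposited raw counts per gene and FPKM for the same rows. Per the submitters' processing notes the build was Rnor_6.0 (rn6), yet all 54532 rows carry mouse identifiers. The sources used here name no aligner or counter, so strand handling and reads shared between similar genes could not be checked. Each deposited FPKM equalled the count divided by gene length and by a size-factor-scaled library total (largest relative difference 5.1e-15). The deposited group means were not used. Both AAV-Fgf7 descriptions name the same column, and the second column was matched to rat 2 through its number and title.

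Counts were filtered with filterByExpr (6370 of 12902 genes with a count, 98.9% of counts), scaled by TMM and compared by the quasi-likelihood F test (edgeR 4.0.16, R 4.3.3), without the rat as a block, Benjamini-Hochberg threshold 0.05. SE is the log2 fold change over the root of F, and the common biological coefficient of variation was 29.1%. CPM are TMM-scaled. DESeq2 1.42.0 and limma 3.58.1 were alternatives. The scripts were tested on simulated data. Members and lists were chosen with earlier results of these data known. Named were all tested members, with an edgeR unadjusted p where the groups did not overlap, and the 3 tested genes of highest mean CPM in each pathway list. Full statistics were planned for members without overlap and for the member that led its role by FPKM, but are not printed for all of them. Promoters were shown in place of planned proteins, which are not used here, and were picked after values were seen. Rat numbers pair the ears by animal, per the titles, but same-numbered libraries deviated from their group means with r = -0.30 over 6370 genes. Every pair of libraries differed by more than sampling noise (chi-square per degree of freedom 6.89 to 23.9). Reads carry no molecular identifiers, so floors cover counting error only.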

Additional observations from a re-analysis of the deposited data

How the results depend on the processing

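With 2 libraries a group and few counts for most members, modest differences were not detectable at this depth. No alternative called a member. Adjusted p of members ran from 0.267, for Mmp16 without the AAV-control library of rat 1, to 1.00. All genes called numbered 0 by edgeR with TMM, 4 by DESeq2 and 3 with no low-count filter, and 0 to 59 when 1 library was left out, a fit that filters its genes anew and assumes that the lone library varies like the others (59 without the AAV-control library of rat 1, 40 without that of rat 2). Of 283 fold changes of tested members under alternatives, 271 kept direction and call. The other 12 changed sign, all when a library was left out, where Adam10 ran from -0.018 to 0.048, Adam23 from -0.76 to 0.14, Adamts12 from -0.23 to 0.47, Adamts2 from -0.36 to 0.27, Mmp15 from -0.94 to 0.12, Timp3 from -0.95 to 0.039 and Timp4 from -0.14 to 0.51 (log2). The members' median stayed between -0.49 and -0.02 in all settings. With rat as a replicate block, edgeR called 0 genes and 0 members (75 genes at an unadjusted p under 0.05), and the block changed no call. With the numbers crossed between the groups, chosen after seeing the data, 0 genes and 0 members were called (301 genes at an unadjusted p under 0.05).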
